A study of Mus musculus with 4 samples.

Results

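The Sox factors are DNA-binding proteins that share the HMG box of the sex-determining factor SRY, and 8 of them were followed in single cells of the mouse prefrontal cortex: Sox2, Sox4, Sox5, Sox8, Sox9, Sox10, Sox11 and Sox12. They were chosen by name, as 8 of the 29281 genes listed in any of the files, with earlier results of these data known. Cells of c57bl/6 mice were captured at postnatal days 1, 4 and 10 (P1, P4, P10) and in adulthood (Adult, P84), with no genetic alteration and no treatment at any age. The methods state that all mice were female and that 2 mice were used per age, but the cells were not assigned to animals here, so every age counts as 1 library. Transcripts were captured at their 3' ends on barcoded beads and counted as unique molecular identifiers (UMIs), so a count is a number of molecules.

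SOX proteins are grouped by the likeness of their HMG box, and all bind short sequences such as ACAAAG and the closely related site ACAATG. Sox2 is a SoxB1 factor that keeps neural stem and progenitor cells undifferentiated. Sox4, Sox11 and Sox12 form the SoxC group, which is switched on as progenitors leave the cell cycle and turns on genes of immature neurons. Sox5 is a SoxD factor known in the cortex for its part in the identity of deep-layer projection neurons. Sox8, Sox9 and Sox10 form the SoxE group. In it Sox9 starts glial development and is kept in astrocytes, Sox10 drives the myelin genes of the oligodendrocyte lineage, and Sox8 acts beside both.

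In order of age the libraries held 11673, 19646, 16114 and 15961 barcodes, with total UMIs from 200198548 to 340724049 per library. After filtering, 11545, 19014, 15272 and 14087 cells were kept. The P1 library stands apart in how it was made: its header names version 1.11 of the authors' pipeline and states that intronic reads were not excluded, while the headers of P4, P10 and Adult name version 1.8 and give no intron setting. P1 also goes against the stated sex, since 4 Y-linked genes summed to 120.4 CPM (the UMIs of a gene scaled to the total of its class or library) there and to at most 0.190 CPM in each later library. Adult was therefore compared with P4, and P1 values stand beside that comparison. Cell barcodes were shared by 14 cells of P1 and P4, 20 of P1 and P10, 12 of P1 and Adult, 357 of P4 and P10, 368 of P4 and Adult and 319 of P10 and Adult. With 1 library per age there is no replicate and no test, and every interval below is a 95% interval for counting error only, so differences between animals are outside it.

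Cells were clustered within each age, without any Sox gene among the clustering genes, and clusters were named from marker lists that hold no Sox gene. The names end in "-like" because they rest on markers alone. Glutamatergic clusters were IT-like (intratelencephalic), L5 PT-like (layer 5 pyramidal tract), L5 NP-like (layer 5 near-projecting), L6 CT-like (layer 6 corticothalamic) and, at single ages, L6b-like and newborn excitatory-like. Interneurons were divided by origin in the medial or caudal ganglionic eminence (MGE-like, CGE-like). Non-neuronal classes were astrocyte-like, OPC-like (oligodendrocyte precursor), COP/oligodendrocyte-like (committed precursors and young oligodendrocytes), oligodendrocyte-like, microglia-like and vascular, a few fibroblast-like cells (26 at P10, 27 in Adult) and perivascular macrophage-like cells (43 in Adult), with a class of proliferating progenitor-like cells at P1, P4 and P10. IT-like cells numbered 4906, 6066, 4400 and 4061 from P1 to Adult, astrocyte-like cells 169, 1408, 2067 and 1717, and OPC-like cells 223, 813, 1049 and 522. Of the kept cells, 5.99%, 11.3%, 4.74% and 5.30% had no name, in order of age. In astrocyte-like cells 9 or 10 of the 10 markers were higher than in the other named cells, in OPC-like cells 9 of 9, in L6 CT-like cells 9 of 9 and in microglia-like cells 11 of 11 at each age, while L5 PT-like cells had 5 to 8 of 8. Some IT-like clusters had low IT marker scores, as with 0.28 for 582 cells at P1 and 0.14 for 902 cells at P10. In the latter the striatal projection markers scored 0.19. A P4 cluster of 1332 cells scored 0.09 for IT and stayed unnamed.

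The 3 SoxC genes were all lower in Adult than at P4 in the neuron classes followed, though not in step. The 150 bases before each of their RefSeq starts are therefore shown here for comparison. They come from RefSeq for build GRCm38.p6, on the strand of the gene, at chr13:28953700-28953849 for Sox4, chr12:27342719-27342868 for Sox11 and chr2:152398047-152398196 for Sox12, all on the minus strand. Capitals mark the CCAAT box, which is spelled CCAAT and reads as ATTGG when it lies on the opposite strand, and the GC box, which is spelled GGGCGG and reads as CCGCCC when it lies on the opposite strand. The boxes do not overlap each other in these windows.
Sox4: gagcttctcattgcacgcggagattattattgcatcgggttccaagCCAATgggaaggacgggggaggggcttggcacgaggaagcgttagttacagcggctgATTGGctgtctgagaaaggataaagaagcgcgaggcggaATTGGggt
Sox11: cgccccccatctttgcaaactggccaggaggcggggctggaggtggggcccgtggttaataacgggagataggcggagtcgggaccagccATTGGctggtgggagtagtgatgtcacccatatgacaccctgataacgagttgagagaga
Sox12: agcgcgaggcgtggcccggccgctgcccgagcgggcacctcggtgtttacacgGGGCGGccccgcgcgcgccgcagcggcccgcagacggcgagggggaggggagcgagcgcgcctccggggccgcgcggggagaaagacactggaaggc

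The CCAAT box occurs 3 times in the Sox4 sequence and 1 time in that of Sox11, and 24.5% of 32851 promoters hold it in the same window. Sox12 holds 1 GC box, found in 28.6% of promoters. Its window is 80.0% G and C, against 54.7% for Sox4, 59.3% for Sox11 and a median of 54.0% over all promoters. The SOX-type site ACAAAG, found in 9.88% of promoters, is in none of the 3 windows on either strand. The same holds for the SOX-type site ACAATG, found in 6.41%, and for the TATA box, spelled TATAAA and found in 7.57%. Of the 8 genes, 6 had an entry in the promoter table, and Sox9 and Sox10 had none.

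By the GENCODE annotation of GRCm38, Sox2 (chr3:34650405-34652461, plus strand), Sox4 (chr13:28948919-28953713, minus strand) and Sox11 (chr12:27334264-27342574, minus strand) are genes of 1 exon. Sox12 lies at chr2:152393611-152398063, Sox8 at chr17:25565892-25570686 and Sox10 at chr15:79154908-79165240, all on the minus strand, and Sox9 at chr11:112782224-112787760 on the plus strand. Sox5 differs from these by its size: it spans 953553 bases at chr6:143828425-144781977 on the minus strand, with 6 to 15 exons. The effect of the intron setting named above on its P1 counts was not tested. Sox2 lies within Sox2ot on the same strand, so their reads may be hard to tell apart. Sox5 shares its strand with Gm44068 and Sox5it, whose reads may likewise be shared, and genes on the opposite strand overlap Sox4, Sox5 and Sox8.

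**Figure D1:**
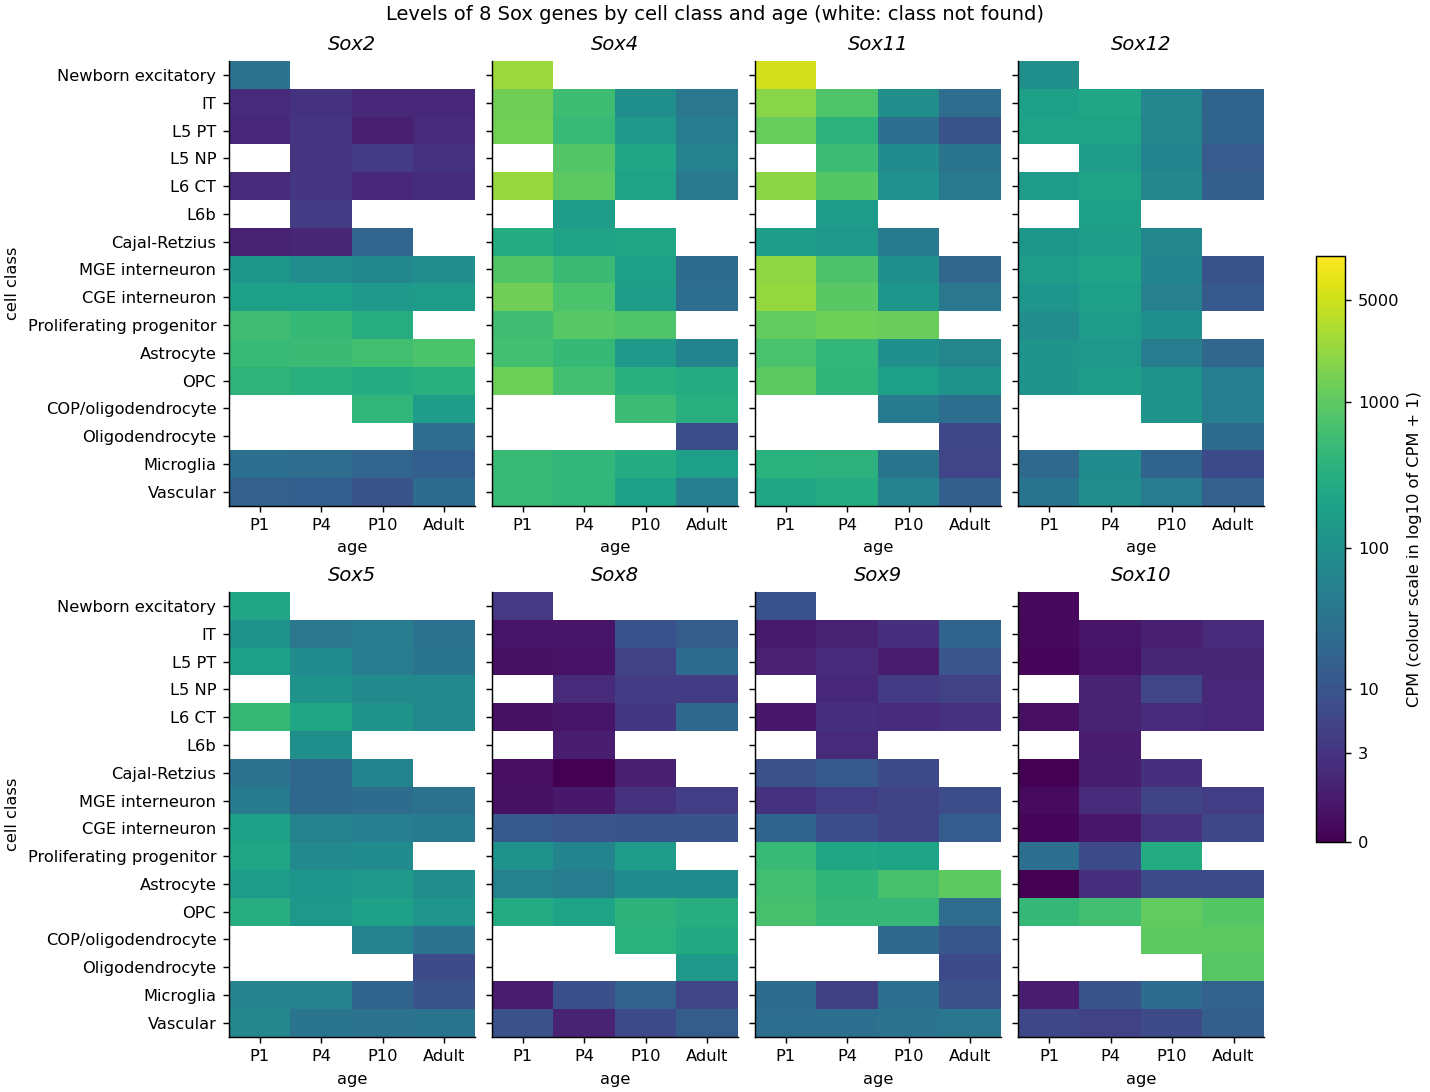
Level of each of the 8 Sox genes, as log10(CPM + 1) of summed UMIs, in 16 marker-named classes (rows) at each age (columns), with white where a class was not found. SoxC genes are bright in the neuron rows at P1 and P4 and dark there in Adult, Sox9 is bright in astrocyte-like cells at all ages (1003 CPM in Adult) and goes dark in adult OPC-like cells (25.5 CPM), and Sox10 is bright in the oligodendrocyte lineage.

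The SoxC genes fell in every neuron class followed from P4 to Adult, excitatory and inhibitory alike, and Sox11 fell furthest in L5 PT-like and MGE-like cells. Fell and rose are used here for differences of at least 2-fold, with no test. In neurons other than IT, the summed UMIs of Sox4, Sox11 and Sox12 gave a log2 ratio of Adult to P4 of -4.20 (-4.24 to -4.16). For reference, the median gene of these neurons moved by -0.14, and that of the single neuron classes by -0.12 to -0.24. In IT-like cells the corresponding ratio of the sum was -4.28.

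Among neurons other than IT, 3 of the 8 Sox genes (Sox4, Sox11 and Sox12) were at least 2-fold lower in Adult than at P4, where 19.4% of all 14868 genes measured were. The same 3 passed that fold in each class taken alone. The share of all genes at least 2-fold lower was 22.1% in IT-like, 19.7% in L5 PT-like, 18.1% in L5 NP-like, 22.2% in L6 CT-like, 20.5% in MGE-like and 17.6% in CGE-like cells. Sox5 was also at least 2-fold lower in L5 PT-like and L6 CT-like cells.

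Sox4 was highest at P1 in newborn excitatory-like cells (2490 CPM) and in L6 CT-like cells (2405 CPM). In L6 CT-like cells it then measured 990, 207 and 39.6 CPM at the later ages, a log2 ratio of Adult to P4 of -4.64 (-4.75 to -4.54). L5 PT-like cells passed from 1396 and 518 CPM at P1 and P4 to 139 and 47.5, and IT-like cells from 1338 and 573 to 97.5 and 37.4. L5 NP-like cells, named from P4 on, held 855, 222 and 56.6 CPM. At P4 the order among projection neurons was thus L6 CT-like, L5 NP-like, IT-like and L5 PT-like, while by Adult the range had narrowed to 37.4 to 56.6 CPM.

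Sox11 was the most abundant SoxC transcript in newborn excitatory-like cells, at 5270 CPM or 67.1% of the SoxC sum. L5 PT-like cells carried 1195, 377, 27.7 and 9.73 CPM from P1 to Adult, the lowest adult value of the neuron classes, with a log2 ratio of Adult to P4 of -5.28 (-5.51 to -5.05). Most of that drop lay between P4 and P10 (-3.77), and the step from P10 to Adult was -1.51. L6 CT-like cells held 2025, 886, 104 and 41.0 CPM and IT-like cells 1926, 797, 92.9 and 25.7 CPM. The fall of Sox12 came later: in neurons other than IT its log2 steps were -1.60 until P10 and -2.21 afterwards, whereas those of Sox11 were -2.86 and -1.67.

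The interneuron classes started with more Sox11 than Sox4. MGE-like cells held 2149, 760, 97.8 and 19.7 CPM of Sox11 and 819, 533, 183 and 24.9 CPM of Sox4 from P1 to Adult. CGE-like cells held 2314, 944, 127 and 37.7 CPM of Sox11 and 1338, 727, 171 and 26.4 CPM of Sox4. As whole classes, CGE-like exceeded MGE-like cells for Sox4 at P4 (log2 ratio 0.45, 0.40 to 0.49) but no longer at P10 (-0.10, -0.18 to -0.03), and the adult difference was not detectable at this depth (0.08, -0.17 to 0.34). For Sox11 the log2 ratio of CGE-like to MGE-like cells was 0.31 (0.27 to 0.35) at P4 and 0.93 (0.69 to 1.17) in Adult. The adult order does not hold cluster by cluster. Sox11 was 47.2 CPM in the Vip-led and 22.1 CPM in the Npy-led CGE-like cluster. It was 22.5 CPM in the Sst-led and 17.2 CPM in the Tac1-led MGE-like cluster. The P4 order rests on pooling, since the MGE-like class then held a cluster of 1059 cells led by Sst, with 374 CPM of Sox4 and 571 CPM of Sox11, and one of 1100 cells led by Erbb4, with 850 and 1137 CPM, above the CGE-like 727 and 944 CPM.

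At P1 and P4, Cajal-Retzius-like cells held less SoxC RNA than the other named neuron classes except L6b-like cells, which were as low at P4. Cajal-Retzius-like cells, the earliest-born cells of layer 1, measured 597, 499 and 337 CPM for the SoxC sum at P1, P4 and P10, from 54, 124 and 75 cells, and at P10 they were above IT-like cells. L6b-like cells, remnants of the subplate, measured 511 CPM at P4, where L6 CT-like cells measured 2086. In proliferating progenitor-like cells the SoxC sum was 1785, 2368 and 2094 CPM at P1, P4 and P10. The 7 GABAergic markers stood at 28.4%, 60.5% and 41.2% of the MGE-like level in this class. Without cells holding a glutamatergic marker UMI, its Sox4 measured 451.5, 1072 and 1038 CPM and its Sox11 856, 1629 and 1548 CPM.

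**Figure D2:**
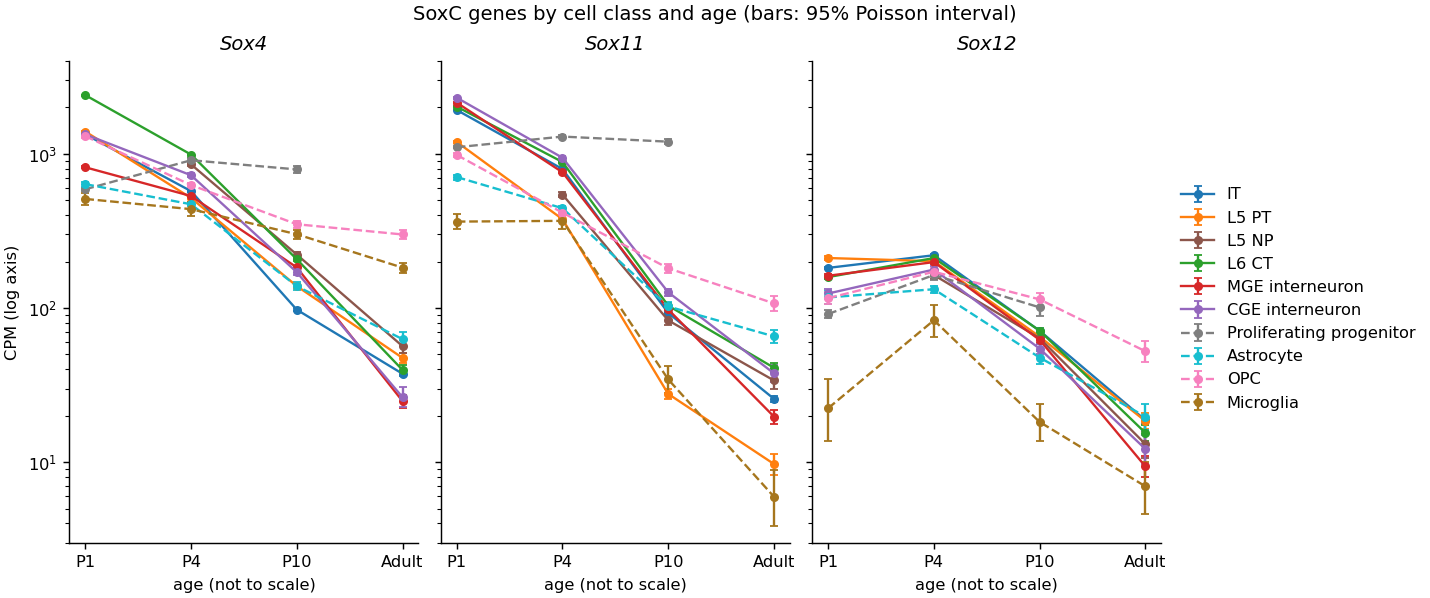
CPM of Sox4, Sox11 and Sox12 (log scale) against age in the classes drawn, with 95% counting intervals. The 6 neuron classes drawn are lower at P10 than at P4 and lower again in Adult, while OPC-like cells (dashed, as are the other non-neuronal classes drawn) hold 300.0 CPM of Sox4 in Adult. In proliferating progenitor-like cells Sox4 and Sox11 stay near their P4 level at P10 (793 and 1200 CPM), while Sox12 goes from 164 to 101 CPM.

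In glia the SoxC sum fell less than in neurons, and Sox4 was still above 150 CPM in adult OPC-like, COP/oligodendrocyte-like and microglia-like cells. In OPC-like cells Sox4 was 1302, 628, 350 and 300.0 CPM from P1 to Adult, a log2 ratio of Adult to P4 of -1.07 (-1.17 to -0.96), and Sox11 was 985, 415, 181 and 107 CPM. In astrocyte-like cells Sox4 went through 636, 471, 139 and 62.8 CPM and Sox11 through 708, 444, 102 and 65.5 CPM. For the SoxC sum the log2 ratio was -2.82 (-2.93 to -2.72) in astrocyte-like and -1.40 (-1.49 to -1.32) in OPC-like cells, against median genes of -0.22 and -0.05. In both classes Sox4, Sox11 and Sox12 were at least 2-fold lower, as were 18.3% of all genes in astrocyte-like and 9.65% in OPC-like cells. The adult OPC-like level of Sox4 exceeded that of astrocyte-like cells by 2.26 (2.08 to 2.44) on the log2 scale.

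Neuronal markers were also found in these glial classes, and their part in the values was not tested. The 6 glutamatergic markers, all detected in both classes, summed to 26.0%, 37.0%, 12.9% and 16.9% of their IT-like level in astrocyte-like cells from P1 to Adult, and to 15.7%, 30.8%, 12.9% and 34.1% in OPC-like cells. The 9 proliferation markers summed to 345, 1702, 63.4 and 197 CPM in OPC-like cells from P1 to Adult, so more cycling RNA lay in that class at P4 than at the other ages, and its part in the OPC-like differences from P4 was not tested for any Sox gene. Scrublet, which scores likely doublets, marked 22.0% of astrocyte-like cells at P4 and 1.17% in Adult, and 15.6% and 10.9% of OPC-like cells. In cells with no glutamatergic marker UMI (515 of 1408 astrocyte-like at P4, 671 of 1717 in Adult), Sox4 was 385 CPM at P4 and 65.7 in Adult, and the SoxC ratio of astrocyte-like cells was -2.33. In such OPC-like cells (304 of 813 and 190 of 522) Sox4 was 667 and 398 CPM and the SoxC ratio was -0.97, short of 2-fold, as it also was without Scrublet-marked cells (-0.94).

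Sox4 parted from Sox11 in the oligodendrocyte lineage and in microglia-like cells. COP/oligodendrocyte-like cells held 546 CPM of Sox4 at P10 and 333 in Adult, above OPC-like cells at P10 (log2 ratio 0.64, 0.53 to 0.76) and not detectably so in Adult (0.15, -0.01 to 0.32). Their Sox11, at 45.1 and 27.1 CPM, was below that of OPC-like cells at both ages (-2.01, -2.33 to -1.70, and -1.99, -2.51 to -1.50). Adult oligodendrocyte-like cells held 8.27 CPM of Sox4 and 6.48 CPM of Sox11. Sox4 thus ran from 300.0 CPM in adult OPC-like cells through 333 in COP/oligodendrocyte-like cells to 8.27 in oligodendrocyte-like cells. That middle class is a single adult cluster of 126 cells, scoring 5.5 for oligodendrocyte and 4.77 for committed precursor markers. It held 130 cells at Leiden resolution 1.0. Without Scrublet-marked cells (1020) or under a stricter cell filter (716), no separate oligodendrocyte-like class was named. With Sox and listed genes allowed in clustering, the class was absent in Adult. The effect on its Sox levels was not tested.

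Microglia-like cells measured 510, 438, 301 and 183 CPM of Sox4 from P1 to Adult, with 34, 85, 708 and 1055 cells, and 93.4% of their adult SoxC sum was Sox4. Proliferation markers in these cells summed to 2500, 2099, 1917 and 11.4 CPM, so cycling RNA moved with the lower adult Sox4, and its part in that was not tested. Their Sox11 measured 364 and 368 CPM at P1 and P4 and 34.4 and 5.97 CPM later. Glutamatergic markers stood at 37.2% of the IT-like level in microglia-like cells at P4 and at 12% in Adult. Without cells holding such a UMI, microglia-like Sox4 was 289, 208, 288 and 199 CPM, from 12, 23, 268 and 405 cells, so the decline seen in all microglia-like cells up to P10 was not seen in those few. Sox11 in the same cells was 39.6 and 193 CPM at P1 and P4, from 10 and 26 UMIs, and 20.8 and 4.21 CPM later, so its level at P1 and P4 was lower in cells without such a UMI.

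The genes that SoxC factors are known to act on in immature neurons were followed as a list of 6 (Dcx, Tubb3, Map2, Tead2, Stmn1 and Dpysl3). In neurons other than IT, 5 of the 6 were at least 2-fold lower in Adult than at P4 and none was higher, with a median log2 ratio of -2.78 against -0.14 for all genes. The share of all genes at least 2-fold lower in these neurons was 19.4%. In IT-like cells 4 of 6 were lower, against 22.1% of all genes. Stmn1, a microtubule-destabilising protein, measured 5270 CPM at P4 and 1265 in Adult there, Dpysl3 (a growth cone protein) 4117 and 68.6, Tubb3 (neuronal tubulin) 2437 and 306.5, and Dcx (doublecortin, of migrating neurons) 1937 and 49.0. Astrocyte-like cells had 5 of 6 lower (median -3.14, against 18.3% of all genes) and OPC-like cells 4 of the 5 measured (median -2.18, against 9.65%), beside the glutamatergic marker levels given above.

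Among the SoxE genes, Sox9 was shared by astrocyte-like and OPC-like cells early and was almost lost from OPC-like cells by Adult. Astrocyte-like cells held 624, 413, 695 and 1003 CPM from P1 to Adult, and OPC-like cells 685, 456, 455 and 25.5. OPC-like cells were thus slightly above astrocyte-like cells at P1 and P4 (log2 ratio of astrocyte-like to OPC-like -0.14 at both ages, -0.21 to -0.06 and -0.22 to -0.07), below them at P10 (0.61, 0.54 to 0.69) and far below in Adult (5.30, 4.97 to 5.64). Among cells with no glutamatergic marker UMI the order at P4 was the other way, with 658.5 CPM (625.5 to 693) in astrocyte-like and 639 CPM (599 to 682) in OPC-like cells, though these intervals overlap. In such astrocyte-like cells Sox9 was 1124 CPM in Adult, short of 2-fold over P4. Between P4 and Adult the OPC-like ratio was -4.16 (-4.51 to -3.83), with nearly equal levels at P4 and P10 in all OPC-like cells.

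The adult OPC-like count was 76 UMIs in 522 cells, against 1933 in 1049 cells at P10. After thinning to 2000 UMIs, so that depth is equal, and leaving out shallower cells (from P4 to Adult, 800 of 813, 1023 of 1049 and 521 of 522 OPC-like cells stayed), 66.8%, 56.8%, 51.8% and 4.22% of OPC-like cells had a Sox9 UMI from P1 to Adult (unthinned 93.3%, 79.0%, 68.3% and 7.66%). Adult microglia-like cells, which should lack the gene, showed 1.63% after thinning, with a median of 4262 UMIs per cell against 4660.5 in adult OPC-like cells. Astrocyte markers in OPC-like cells stood at 8.45%, 6.40% and 6.48% of the astrocyte-like level from P4 to Adult. Without cells holding a glutamatergic marker UMI the OPC-like level was 639, 487 and 30.0 CPM at those ages, a log2 ratio of -4.41 from P4 to Adult, and without Scrublet-marked cells the ratio was -5.48. Besides the SoxC genes, Sox9 was the only one of the 8 at least 2-fold lower in adult OPC-like cells, where 9.65% of all genes were. None was at least 2-fold higher, as 11.1% of all genes were.

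Sox9 was low further along the lineage too, at 20.7 and 10.7 CPM in COP/oligodendrocyte-like cells at P10 and in Adult and 6.93 CPM in adult oligodendrocyte-like cells. The P10 library therefore held OPC-like cells with Sox9 at 455 CPM beside COP/oligodendrocyte-like cells with 20.7 CPM. In the same cell, after thinning, Sox9 and Sox10 were both found in 34.1%, 43.1%, 45.3% and 3.46% of OPC-like cells from P1 to Adult. In astrocyte-like cells both were found in at most 1.14%.

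Sox10 marked the oligodendrocyte lineage at every age. It measured 457, 612, 1105 and 871 CPM in OPC-like cells, 1035 and 991 CPM in COP/oligodendrocyte-like cells at P10 and in Adult, and 905 CPM in adult oligodendrocyte-like cells. It was thus higher in OPC-like cells at P10 than at P1 and P4, and its adult levels in the 3 lineage classes lay between 871 and 991 CPM. Astrocyte-like cells held no Sox10 UMI among 169 cells at P1 and 2.44, 6.93 and 7.06 CPM later, from 23, 58 and 40 UMIs. OPC-like cells exceeded them by at least 9.25 on the log2 scale at P1, taking the floor of 3 UMIs for the 0, and by 7.97, 7.32 and 6.95 at the later ages. In astrocyte-like cells Sox9 and Sox10 were at least 2-fold higher in Adult than at P4, as 11.4% of all genes were. Sox9 did not reach that fold among cells with no glutamatergic marker UMI (658.5 and 1124 CPM). Adult Sox10 in astrocyte-like cells was lower than in microglia-like cells (17.2 CPM), which should lack it, so nothing is read from its fold.

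Sox8 followed Sox10 more than Sox9. OPC-like cells held 285, 210, 386 and 305 CPM, COP/oligodendrocyte-like cells 353 and 280 at P10 and in Adult, and adult oligodendrocyte-like cells 147, so that Sox8 was lower after the last step (log2 ratio of COP/oligodendrocyte-like to oligodendrocyte-like 0.93, 0.74 to 1.11) where the Sox10 ratio was small (0.13, 0.04 to 0.22). Both ratios of the last step rest on the 126 adult COP/oligodendrocyte-like cells, with the limits given above. Astrocyte-like cells held 55.7, 46.1, 84.2 and 87.9 CPM of Sox8, a log2 ratio of Adult to P4 of 0.93 (0.74 to 1.12). That ratio was 0.23 without cells holding a glutamatergic marker UMI and 0.37 without Scrublet-marked cells.

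In proliferating progenitor-like cells Sox9 measured 487, 224 and 209 CPM at P1, P4 and P10, Sox8 110, 63.7 and 162, and Sox10 28.0, 6.78 and 283. The 9 OPC markers stood at 18.9%, 9.29% and 27.5% of the OPC-like level in these cells, and the 10 astrocyte markers at 86.8%, 31.9% and 5.20% of the astrocyte-like level. Proliferation markers were also found outside this class: they stood at 5.67%, 31.2% and 1.20% of its level in OPC-like cells and at 41.1%, 38.5% and 36.2% in microglia-like cells. The cycling cells gathered in the progenitor-like class may therefore not be of the same kinds at each age, and its Sox values are not read as a change within 1 cell type.

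**Figure D3:**
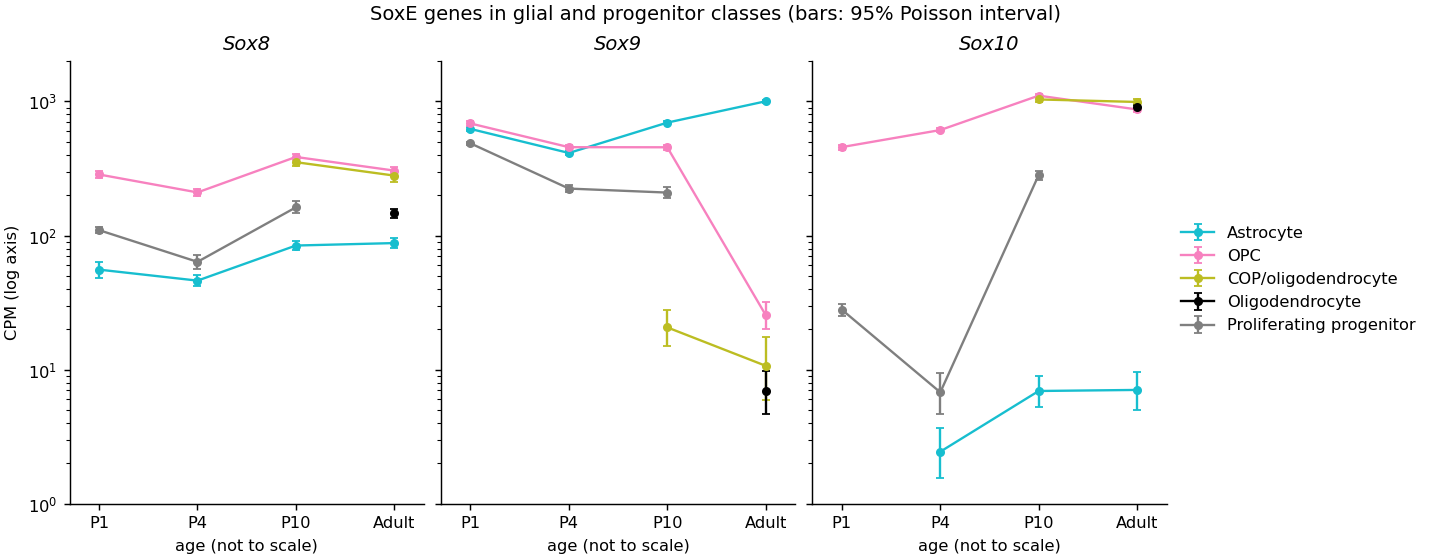
CPM of Sox8, Sox9 and Sox10 (log scale) against age in astrocyte-like, OPC-like, COP/oligodendrocyte-like, oligodendrocyte-like and proliferating progenitor-like cells, with 95% counting intervals. The P1 count of 0 for Sox10 in astrocyte-like cells is not drawn. The Sox9 line of OPC-like cells stays at 456 and 455 CPM at P4 and P10 and drops to 25.5 CPM in Adult, while their Sox10 line stays above 450 CPM.

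In OPC-like cells Olig1, an oligodendrocyte lineage factor, measured 1196 and 1898 CPM at P4 and in Adult, and Olig2, another, 1037 and 1449. Of the 7 astrocyte factors and SOX9-NFIA genes (Nfia, Nfib, Nfix, Zbtb20, Apcdd1, Mmd2 and Zcchc24), which Sox9 is known to act beside or upon, none was 2-fold lower in OPC-like cells and 2 were higher. The shares of all genes in that class were 9.65% lower and 11.1% higher. In astrocyte-like cells, where the log2 ratio of Sox9 was 1.28 (1.22 to 1.34) in all cells, 2 of the 7 were lower and none was higher, against 18.3% and 11.4% of all genes. With so few genes in the list, nothing is read from these counts.

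Sox8 and Sox9 were also found at low levels in adult projection neurons, where they were near 0 at P1 and P4. In IT-like cells Sox8 measured 0.656, 0.682, 9.09 and 14.1 CPM from P1 to Adult and Sox9 0.946, 1.37, 2.57 and 18.5 CPM. The log2 ratio of Adult to P4 was 4.37 (4.01 to 4.76) for Sox8 and 3.75 (3.49 to 4.02) for Sox9. These levels are small beside the 1003 CPM of Sox9 in adult astrocyte-like cells.

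The other projection neurons divided the pair. L6 CT-like cells held 0.519, 0.682, 3.50 and 21.1 CPM of Sox8 but only 0.879, 2.41, 2.26 and 2.69 CPM of Sox9, whose ratio of Adult to P4 was 0.16 (-0.43 to 0.75). L5 PT-like cells held 0.529, 0.596, 5.03 and 24.2 CPM of Sox8 and 1.29, 1.95, 1.10 and 10.3 CPM of Sox9. Sox8 was thus higher in adult L5 PT-like and L6 CT-like than in IT-like cells, and Sox9 was highest in IT-like cells. L5 NP-like cells held 1.96, 4.08 and 3.91 CPM of Sox8 and 1.82, 3.97 and 4.99 CPM of Sox9 from P4 to Adult.

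Counted by fold, Sox8, Sox9 and Sox10 were at least 2-fold higher in Adult than at P4 in IT-like cells, as 19.2% of all genes were. In neurons other than IT together the same 3 passed, against 15.8% of all genes. Sox8 and Sox9 passed in L5 PT-like cells (15.1% of all genes), Sox9 in L5 NP-like cells (14.8%), Sox8 in L6 CT-like cells (14.3%) and Sox8 in MGE-like cells (15%). In CGE-like cells none of the 7 measured passed (13.7%). Adult Sox10 lay under the microglia-like 17.2 CPM in all these neuron classes, so nothing is read from it.

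Glial markers were measured beside these neuron values. In adult IT-like cells all 10 astrocyte markers were detected, summing to 0.338% of the astrocyte-like level, with 0.400% in L6 CT-like, 0.248% in L5 PT-like and 1.13% in CGE-like cells. Sox9 measured 18.5 CPM in IT-like and 2.69 CPM in L6 CT-like cells, and the part of astrocyte RNA in these values was not tested. Among the 913 of 4061 adult IT-like cells with no astrocyte marker UMI, Sox9 measured 18.9 CPM (16.7 to 21.3). Oligodendrocyte markers summed to 0.185% of the oligodendrocyte-like level in adult IT-like, 0.164% in L5 PT-like and 0.161% in L6 CT-like cells, and Sox8 measured 13.9 CPM (12.7 to 15.2) in the 2125 IT-like cells with none of them. In L5 PT-like cells free of the corresponding markers the values were 8.66 CPM (6.27 to 11.7) of Sox9 and 24.7 CPM (21.3 to 28.6) of Sox8, and in L6 CT-like cells 1.68 CPM (0.615 to 3.65) of Sox9 and 20.6 CPM (18.0 to 23.4) of Sox8.

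After thinning to 2000 UMIs, which 4002 of 4061 adult IT-like and 1045 of 1055 adult microglia-like cells reached, a Sox9 UMI was found in 3.47% of adult IT-like cells, 0.531% of L6 CT-like cells and 1.63% of microglia-like cells, the class taken as background (medians of 19898, 16853 and 4262 UMIs per cell before thinning). Unthinned, 23.1% of IT-like cells had one. Sox8 was found in 2.17% of adult IT-like and 0.670% of microglia-like cells. By CPM, adult microglia-like cells held 5.97 of Sox8 and 8.71 of Sox9. Sox9 in adult IT-like cells and Sox8 in adult IT-like, L5 PT-like and L6 CT-like cells were above that level with and without cells holding glial markers. Sox9 in L5 PT-like cells was not above it once such cells were left out (8.66 CPM), though 2.30% of all adult L5 PT-like cells had a Sox9 UMI after thinning. Sox9 in L6 CT-like and both genes in L5 NP-like and MGE-like cells lay under that level. No rise is read from these values. The microglia-like class held more astrocyte marker RNA than these neurons, and the part of such RNA was not tested. Adult vascular cells held more than microglia-like cells, at 14.1 CPM (11.2 to 17.5) of Sox8 and 35.7 CPM (31.0 to 40.9) of Sox9, so neither gene in IT-like cells was above the vascular level. Astrocyte markers stood at 5.63% of the astrocyte-like level in adult vascular cells and at 1.5% in microglia-like cells, against 0.338% in IT-like cells. At P10, however, Sox8 in IT-like cells (9.09 CPM) was below the microglia-like level of 17.6 CPM, which rests on 52 UMIs in 26 cells. After thinning the P10 order was the other way, at 2.045% (1.648 to 2.508) of IT-like and 1.325% (0.6078 to 2.501) of microglia-like cells, though these intervals overlap. Within the adult IT-like class the level lay between 13.2 and 23.4 CPM of Sox9 over 7 subclusters and between 8.19 and 20.5 CPM of Sox8. Sox8 was higher in subclusters with layer 2/3 markers (20.5 CPM, 18.5 to 22.7) than in those with layer 5 markers (12.7 CPM, 11.2 to 14.2). No thinned adult IT-like cell held both Sox9 and Sox10. Since only 0.575% of them held Sox10, so few joint cells could occur that nothing is read from this.

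Both genes were also measured in interneurons, where the adult MGE-like values are those found under the microglia-like level above. MGE-like cells held 0.511, 0.894, 2.69 and 4.28 CPM of Sox8 and 2.83, 4.31, 5.72 and 7.70 CPM of Sox9. CGE-like cells held 12.1, 10.3, 9.94 and 10.1 CPM of Sox8, with no detectable change from P4 to Adult (log2 ratio -0.02, -0.51 to 0.46), and 18.8, 8.07, 5.50 and 13.6 CPM of Sox9. In the 78 of 479 adult CGE-like cells with no astrocyte marker UMI, Sox9 was 5.83 CPM (1.89 to 13.6), not above the microglia-like level. Sox8 in the same 78 cells was 8.17 CPM (3.28 to 16.8), an interval that includes the microglia-like 5.97 CPM. In the 299 with no oligodendrocyte marker UMI, Sox8 was 9.68 CPM (6.81 to 13.3), above the adult microglia-like level and below the vascular one. Sox9 in those 299 was 17.3 CPM (13.4 to 22.0). Adult oligodendrocyte-like cells held only 6.93 CPM of Sox9, so this choice of cells cannot show the part of astrocyte RNA, and nothing is read from it.

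**Figure D4:**
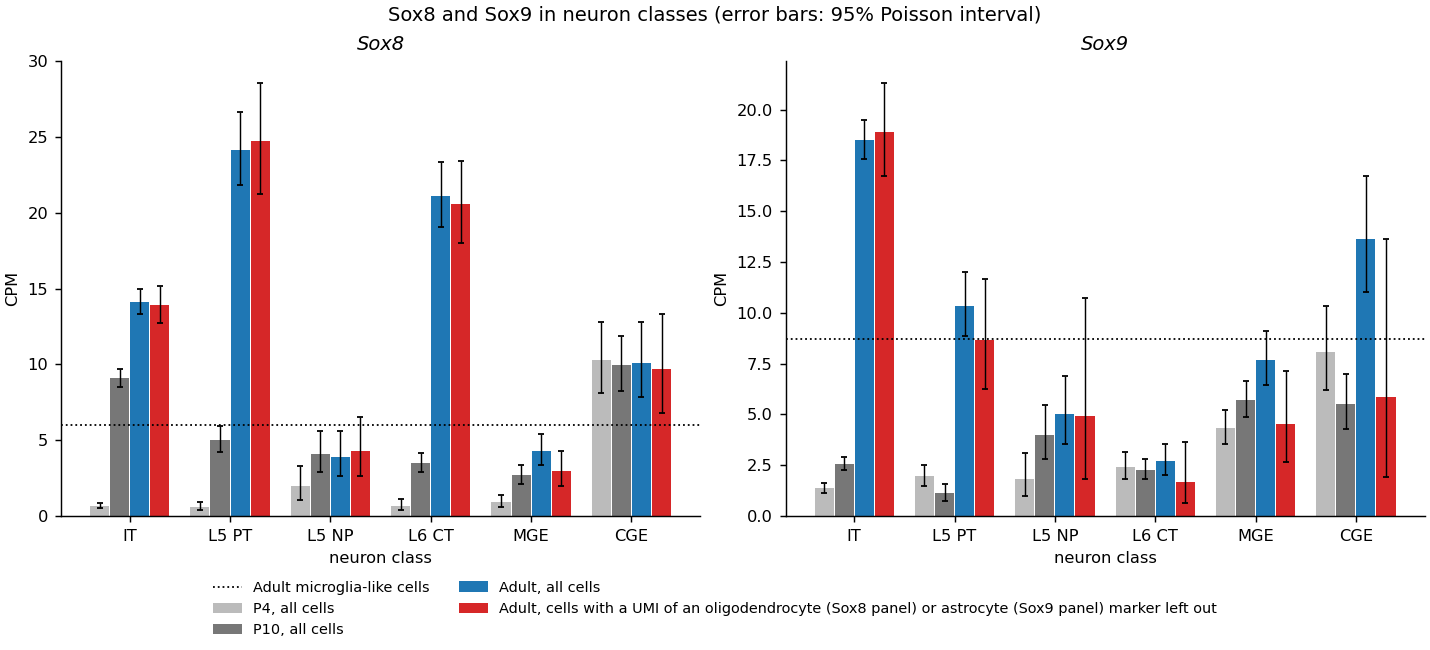
Bars give CPM of Sox8 and Sox9 (linear axis from 0) in 6 neuron classes at P4, P10 and in Adult, and in adult cells free of oligodendrocyte (Sox8) or astrocyte (Sox9) marker UMIs, with 95% counting intervals and a dotted line at the adult microglia-like level. Sox9 of IT-like cells stands at 18.5 CPM in Adult and that of L6 CT-like cells at 2.69 CPM, while Sox8 is higher in L5 PT-like (24.2 CPM) and L6 CT-like cells (21.1 CPM) than in IT-like cells (14.1 CPM).

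Among the named neuron classes Sox5 was highest in L6 CT-like cells at P1, P4 and P10. An unnamed P1 cluster of 338 cells, led by Gm28928, Sgcz and Gpc5, held more of it, at 713 CPM. Its Sox4, at 421 CPM, lay under that of P1 IT-like, L5 PT-like and L6 CT-like cells. What these cells are, and the part of the P1 intron setting in their Sox5 level, was not tested. Sox5 measured 484, 224, 116 and 76.9 CPM in L6 CT-like cells from P1 to Adult. In IT-like cells it was 107, 37.4, 46.8 and 29.8 CPM. L6 CT-like cells exceeded IT-like cells on the log2 scale by 2.18 (2.15 to 2.21), 2.58 (2.52 to 2.64), 1.31 (1.25 to 1.37) and 1.37 (1.27 to 1.46) in order of age. The classes were not made up alike at P4 and P10: a P4 cluster of 1332 cells led by Npy, Vegfd and Fosl2 had no name and held 169 CPM of Sox5, while a P10 cluster of 902 cells with these genes among its leading ones held 108 CPM and lay within the IT-like class. At P1 a cluster of 582 cells led by Npy, with Fosl2 among its leading genes, held 318 CPM and also lay within the IT-like class. The part of these differences in the values at P4 and at the other ages was not tested. With Scrublet-marked cells left out and the rest clustered anew, the P4 IT-like class held 7502 cells in place of 6066, and the P4 value was 2.0. It was 2.63 with the marked cells dropped after clustering.

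L5 PT-like cells held 180, 85.1, 48.2 and 34.3 CPM of Sox5. Their lead over IT-like cells was 1.19 (1.11 to 1.26) at P4, was not detectable at P10 (0.04, -0.04 to 0.13) and was 0.20 (0.07 to 0.34) in Adult. The P10 IT-like class held the cluster with Npy named above, at 108 CPM, and others at 40.8 and 24.0 CPM. The similar P4 cluster lay outside the class. The part of this in the ratios was not tested. L5 NP-like cells, at 112, 78.9 and 77.2 CPM from P4 on, were level with L6 CT-like cells in Adult within counting error, and both were above all other neuron classes there. Among the IT-like subclusters with layer markers Sox5 was higher in deeper layers. Those of layer 2/3, layer 5 and layer 6 held 24.9, 60.2 and 72.5 CPM at P10 and 15.3, 29.8 and 56.0 CPM in Adult. The adult layer 5 subclusters differed, at 24.1 and 41.9 CPM. P10 subclusters with no layer ran from 25.8 to 139 CPM. No P4 subcluster was given a layer, and at P1 only layer 2/3 was.

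As whole classes, CGE-like interneurons held more Sox5 than MGE-like ones at every age, at 190, 56.3, 50.1 and 44.7 CPM against 43.8, 21.7, 24.9 and 30.2 CPM. The log2 ratio between them shrank with each age, being 2.12 (2.01 to 2.23), 1.37 (1.19 to 1.56), 1.01 (0.85 to 1.17) and 0.57 (0.36 to 0.78). The adult classes each pooled unlike clusters: Sox5 was 8.97 CPM in the Sst-led and 50.04 CPM in the Tac1-led and Pvalb-rich MGE-like cluster, and 25.7 CPM in the Vip-led and 75.9 CPM in the Npy-led CGE-like cluster, so the adult order does not hold cluster by cluster. Sox5 was not confined to neurons, with 310, 135, 191 and 123 CPM in OPC-like and 164, 124, 140 and 90.9 CPM in astrocyte-like cells. From P10 on, OPC-like cells were above L6 CT-like cells, by 0.72 (0.60 to 0.82) and 0.67 (0.50 to 0.84) on the log2 scale.

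Deep-layer fate genes, with which Sox5 is known to act, were measured beside it. In L6 CT-like cells Tbr1, a layer 6 determinant, measured 579 CPM at P4 and 460 in Adult, and Fezf2, a determinant of layer 5 subcerebral neurons, 410 and 218. In L5 PT-like cells Bcl11b, a factor of subcerebral neurons, measured 563 and 370.5 CPM.

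From P4 on Sox2 was highest in astrocyte-like cells, and it was also present in adult interneurons. Astrocyte-like cells held 519, 530, 609 and 734 CPM from P1 to Adult, OPC-like cells 400, 342, 301 and 319, and proliferating progenitor-like cells 590, 485 and 309 at P1, P4 and P10. In the oligodendrocyte lineage of Adult it measured 319 CPM in OPC-like, 172 in COP/oligodendrocyte-like and 25.9 in oligodendrocyte-like cells. The last step was 2.73 (2.41 to 3.07) on the log2 scale, with the limits of the COP/oligodendrocyte-like class given above. The increase in astrocyte-like cells from P4 to Adult was 0.47 (0.41 to 0.53), but the direction turned to -0.09 in cells with no glutamatergic marker UMI (837 and 787 CPM), so it is not given as a change.

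Both interneuron classes carried Sox2 at all ages. CGE-like cells held 177, 180, 142 and 163 CPM and MGE-like cells 130, 89.8, 72.8 and 91.8 CPM. Microglia-like cells, which should lack the gene, held 28.0, 26.2, 18.9 and 14.9 CPM. CGE-like cells exceeded that by 2.67 to 3.45 and MGE-like cells by 1.78 to 2.62 on the log2 scale. In the glutamatergic classes IT-like, L5 PT-like, L5 NP-like and L6 CT-like, Sox2 stayed below the microglia-like level. Neither interneuron class changed by 2-fold from P4 to Adult (0.03, -0.06 to 0.13 in MGE-like and -0.14, -0.26 to -0.03 in CGE-like cells).

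**Figure D5:**
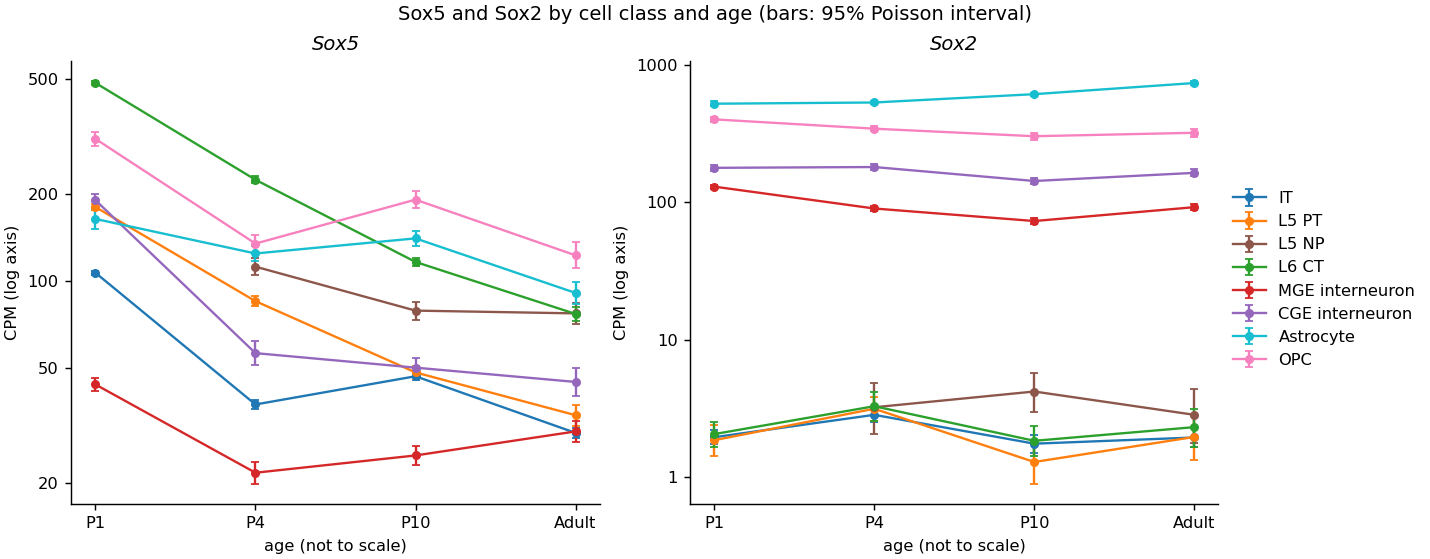
CPM of Sox5 and Sox2 (log scale) against age in neuron and glial classes, with 95% counting intervals. Sox5 starts at 484 CPM in L6 CT-like cells at P1 and ends at 76.9 CPM in Adult, and Sox2 of CGE-like and MGE-like cells stays at 163 and 91.8 CPM in Adult, between the astrocyte-like and OPC-like classes and the glutamatergic classes drawn.

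Over 49 class and age sums of at least 50 cells, the genes whose log2(CPM + 10) was most like each Sox gene were found by Pearson's r among 9705 genes. These correlations describe sums that share libraries and depth. Sox4 was nearest to Thoc1 (r = 0.943) and Sox11 to Mex3a (0.969). Sox12 was nearest to Ttll12 (0.927). Sox8 was nearest to Olig1 (0.953) and Olig2, Sox10 to Prkcq (0.967) and Zfp488, Sox9 to Rfx4 (0.945) and Gldc, and Sox2 to Fam181b (0.908) and Nr2e1. Sox5 had the weakest nearest gene, Zfpm2 (0.825), which is among the markers that named L6 CT-like cells. Between the 8 themselves, r was 0.874 for Sox4 and Sox11, 0.867 for Sox8 and Sox10 and 0.770 for Sox2 and Sox9.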

How the data were processed

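The authors made barcoded 3' libraries of prefrontal cortex cells on the BD Rhapsody platform and deposited UMI counts per cell and gene, mapped to GRCm38 (mm10 in the submitters' processing notes) with GENCODE vM19. Every value is a whole number. The methods name pipeline version 1.11 for all libraries, but the file headers give 1.11 for P1 and 1.8 for the others. Gene positions here are from GENCODE M21 of the same build.

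Cells with at least 1000 UMIs, 1000 genes and at most 15% mitochondrial UMIs were kept, as in the methods. Each age was clustered alone in scanpy 1.11.5 (2000 variable genes without Sox genes or listed genes, 30 principal components, 20 neighbours, Leiden resolution 0.5). Scrublet marked likely doublets, which were kept unless they made up over 50% of a cluster, which then stayed unnamed. Clusters were named from marker lists, with score thresholds set after their scores and leading genes were seen. The 8 genes, the gene lists and the markers were chosen with earlier results of these data known.

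UMIs were summed per class and age and divided by the class total without mitochondrial and ribosomal protein genes (CPM). Intervals at 95% are exact (Poisson for levels, conditional binomial for ratios, from scipy 1.17.1). A count of 0 was bounded by 3 UMIs. Genes with at least 50 UMIs over both ages entered counts of genes changed by 2-fold, which have no test. Shares of cells were taken after thinning to 2000 UMIs, without cells below that number. The ratio code was tested on simulated counts. Levels are given for the 8 Sox genes, for some Sox genes outside the 8 and for at most 4 of each other list (the highest in the class described). Some lists are also written out in full. Genes named as most like a Sox gene are from its 5 nearest by correlation. Alternatives were another resolution, cell filter, doublet handling, CPM denominator, normalization, cell weight, clustering features and early age, and, added after the data were seen, leaving out cells with marker UMIs of another class. Libraries from other assays of the series were not used here. Some listed genes, and the counts of lists that hold them, are not reported here.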

Additional observations from a re-analysis of the deposited data

Results flagged for a closer look

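Sox9 moved in opposite directions between P4 and Adult in IT-like cells, where the log2 ratio was 3.75 (1.37 to 18.5 CPM), and in OPC-like cells, where it was -4.16 (456 to 25.5 CPM). With 1 library per age the difference between the classes was not tested. The median depth was 19898 UMIs in adult IT-like and 4660.5 in adult OPC-like cells. Among cells with at least 2000 UMIs, thinned to that number (4002 of 4061 adult IT-like and 521 of 522 adult OPC-like cells), both directions remained: a Sox9 UMI was found in 0.280% of IT-like cells at P4 and 3.47% in Adult, and in 56.8% and 4.22% of OPC-like cells. The adult IT-like level was above that of adult microglia-like cells (8.71 CPM) and below that of adult vascular cells (35.7 CPM).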

How the results depend on the processing

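No paired analysis was possible because each age is 1 library and no cells are mapped to mice, and there is no replicate to leave out. Of the alternative values, 60 moved by less than the counting interval of the reported value or stayed within 1.5 times a reported count, 47 moved by more than that and kept their direction and 5 turned direction. The cause of the moves was not tested. All values below are log2 ratios, of Adult to P4 unless named otherwise.

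The SoxC ratio of neurons other than IT was -4.26 without Scrublet-marked cells, -4.05 scaled by median ratios, -4.37 with cells weighted equally and -5.61 from P1. That of astrocyte-like cells was -2.52 at Leiden resolution 1.0, -2.38 without Scrublet-marked cells, -2.41 with them dropped after clustering, -2.33 without cells holding a glutamatergic marker UMI, -2.60 scaled by median ratios, -2.58 weighted equally and -3.30 from P1. That of OPC-like cells was, in the same order of the first 4, -0.98, -0.94, -0.98 and -0.97, with -0.94 under the stricter cell filter, -1.12 weighted equally and -2.39 from P1. Sox5 in L6 CT-like over IT-like cells was 2.48 at resolution 1.0, 2.0 without Scrublet-marked cells, 2.47 under the stricter filter and 2.82 weighted equally, and at other ages 2.18 (P1), 1.31 (P10) and 1.37 (Adult).

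Sox9 in astrocyte-like over OPC-like cells in Adult was 6.19 without Scrublet-marked cells and 6.15 with them dropped after clustering, and it was 0.61 at P10 and turned to -0.14 at P4. Sox9 in OPC-like cells was -5.48 and -5.41 under those doublet settings, -4.75 under the stricter filter, -4.59 weighted equally and -4.75 from P1, and Sox9 in IT-like cells was 4.29 from P1. Sox8 in astrocyte-like cells was 0.39 at resolution 1.0, 0.37 and 0.38 under the doublet settings, 0.23 without glutamatergic UMIs, 1.15 by median ratios, 0.62 weighted equally and 0.66 from P1. Sox10 in OPC-like cells was 0.67 at resolution 1.0, 0.59 under the stricter filter, 0.41 without glutamatergic UMIs and 0.93 from P1. Sox2 in astrocyte-like cells turned to -0.0948 at resolution 1.0, -0.147 and -0.0836 under the doublet settings and -0.0883 without glutamatergic UMIs, with 0.69 by median ratios and 0.075 weighted equally. Genes at least 2-fold lower in neurons other than IT numbered 2879, and 4101 with no minimum of UMIs. Sox levels of adult COP/oligodendrocyte-like cells were not among the alternative values, and the size of that class differed between settings, as given above. The lowest levels, such as Sox8 and Sox9 in adult L5 NP-like cells (29 and 37 UMIs), rest on few UMIs, and depth limits what can be told of them.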

Other observations

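Sox genes outside the 8 were also measured. Sox6, a SoxD factor of MGE-derived interneurons and precursors, measured 377, 263, 183 and 136 CPM from P1 to Adult in MGE-like cells and 673, 394, 537 and 336 CPM in OPC-like cells. Sox1, a SoxB1 factor, measured 183, 153, 99.0 and 108 CPM in CGE-like cells. Sox3, of the same group, fell from 95.6, 54.0 and 45.3 CPM to 1.94 CPM in adult astrocyte-like cells and held at 116, 130, 186 and 155 CPM in OPC-like cells. Sox21, a SoxB2 factor, measured 189, 187, 212 and 258 CPM in astrocyte-like cells. Sox18, a SoxF factor of endothelium, measured 363, 313, 226 and 365 CPM in vascular cells. These values have no test.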
